A study of Mus musculus with 12 samples.

Results

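The axon guidance genes of the mouse prefrontal cortex (PFC) were compared between cocaine and saline after repeated injection. The genes were taken by symbol, without use of their values: semaphorins of classes 3 to 7, plexins, neuropilins, ephrins, Eph receptors, Slits, Robo receptors, netrins, Unc5 receptors and Dcc. Of 16077 gene names that passed the authors' own test status in at least 1 of the 3 deposited tables, 64 matched. They comprised 32 ligands, 31 receptors and Unc50, which matched by spelling alone and is not a guidance receptor. The 2 h, 24 h and 7 d tables held 62, 65 and 64 tested rows of these genes, of 16012, 17143 and 16769 tested rows in all.

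Male C57BL/6 mice (C57BL/6 J in the methods) of 10 weeks received intraperitoneal saline or cocaine (20 mg/kg per day) on 14 consecutive days, and the bilateral PFC was removed at 2 h, at 24 h or on day 7 of withdrawal. The saline group of each time point received the same course of injections. Each of the 6 groups gave 2 polyA RNA libraries, and the tissue of 5 mice went into each library (12 libraries, 60 mice). The deposited value of a gene in a group was 1 FPKM, a fragment count corrected for transcript length and for the size of the library, pooled over both libraries. From these pooled values a comparison at a single time point has no replicate check, and none was tested here, and the depth behind each value was unknown. Each table was also normalized by itself, so that levels set side by side across time points carry any difference between the 3 runs. Pairs of levels are given with saline first, and series of 3 in the order of the time points.

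Axon guidance cues are secreted or membrane-bound proteins that steer growing axons and, in the adult cortex, take part in spine and synapse remodelling. Class 3 semaphorins signal mainly through neuropilin and plexin complexes, transmembrane semaphorins bind plexins directly, ephrins bind Eph receptor tyrosine kinases on neighbouring cells, Slits bind Robo receptors, and netrins bind Dcc and Unc5 receptors. Several of these genes also act in blood vessels, among them Ephb4, Efnb2, Robo4, Unc5b, Plxnd1 and Sema3g.

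The defining markers were those of cortex. Slc17a7, the vesicular glutamate transporter of cortical excitatory neurons, lay between 466 and 532 FPKM in the 6 groups, and Drd2, a marker of striatal neurons, lay between 0.146 and 0.234 FPKM. None of the 4 olfactory bulb markers was a tested locus. Ttr, which choroid plexus makes in quantity, was the marker that differed most. It was at 1.90 FPKM in saline against 0.461 in cocaine at 2 h, 1.80 against 1.10 at 24 h, and 0.284 against 6.54 at 7 d. The other listed choroid plexus markers, Kl, Folr1 and Otx2, lay under 1 FPKM in every group. At 7 d Folr1 went the other way (0.668 FPKM in saline and 0.290 in cocaine), and Kl was at 0.376 and 0.531. In bulk tissue, fewer cells of a type and less RNA per cell cannot be told apart.

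By the mean FPKM of the 6 groups, a level per transcript length, the most expressed member of each family was Sema7a, Sema3c, Plxnd1, Nrp2, Efna3, Efnb2, Epha7, Ephb6, Slit1, Robo2 or Unc5a, and among netrins a locus that joins Ntn3 with Tbc1d24. Sema7a, a membrane-anchored semaphorin that binds plexin C1 and integrins, was the most abundant member at 48.4, 48.9 and 42.9 FPKM in saline and 51.0, 48.4 and 47.2 in cocaine (2 h, 24 h and 7 d). Ephb6, an Eph receptor without kinase activity, was the most abundant receptor, at 39.3, 38.1 and 37.8 FPKM in saline and 36.2, 40.9 and 33.6 in cocaine. Groups overlapped in Sema7a, and the Ephb6 cocaine values lay on both sides of its saline values. Plxnd1, the receptor of Sema3e, was at 22.9, 18.0 and 12.2 FPKM in saline and 22.3, 21.6 and 14.5 in cocaine, so that its saline level varied more between tables than between treatments. Epha7, an ephrin-A receptor, was at 22.1, 20.7 and 20.2 FPKM in saline and 20.8, 24.3 and 19.7 in cocaine. Over the 62 members with a saline value in each table, the SD of the log2 saline level across tables had a median of 0.15 and ran from 0.0097 to 0.46. Epha4 was not counted because its row failed the authors' estimate in every table, although it was listed at 23.9 to 28.4 FPKM. Efna4, Epha1 and Epha2 were without a passing status in every table, at 0.428 FPKM or less, and Epha8 stayed under 1 FPKM in every group.

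A member was counted as higher or lower where cocaine and saline differed by at least 1.2-fold on FPKM + 0.1, among genes with a mean of at least 1 FPKM. At 2 h, 10 of 59 members were higher (16.9%) and 3 were lower (5.08%), beside 10.8% and 7.77% of all 13600 loci. At 24 h, 3 of 62 were higher and 2 were lower, beside 6.45% and 5.9% of 13822 loci. At 7 d, 7 of 62 were higher (11.3%) and 1, Unc50, was lower (1.61%), beside 8.42% and 12.4% of 13674 loci. The median log2 difference of the members at 2 h, 24 h and 7 d was 0.08, 0.00 and 0.11, where all loci had medians of 0.02, 0.01 and -0.01. Above 0 were 42 of 59 members at 2 h (71.2%, against 56.2% of all loci), 31 of 62 at 24 h (50%, against 53.0%) and 45 of 62 at 7 d (72.6%, against 47.4%). Past 1.5-fold, 2 members were higher at 2 h (Ephb3 and Sema3g, beside 2.51% of all loci) and none was lower (1.9%). None was past 1.5-fold in either direction at 24 h (1.85% higher and 1.61% lower over all loci) or at 7 d (1.66% and 2.41%).

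**Figure D1:**
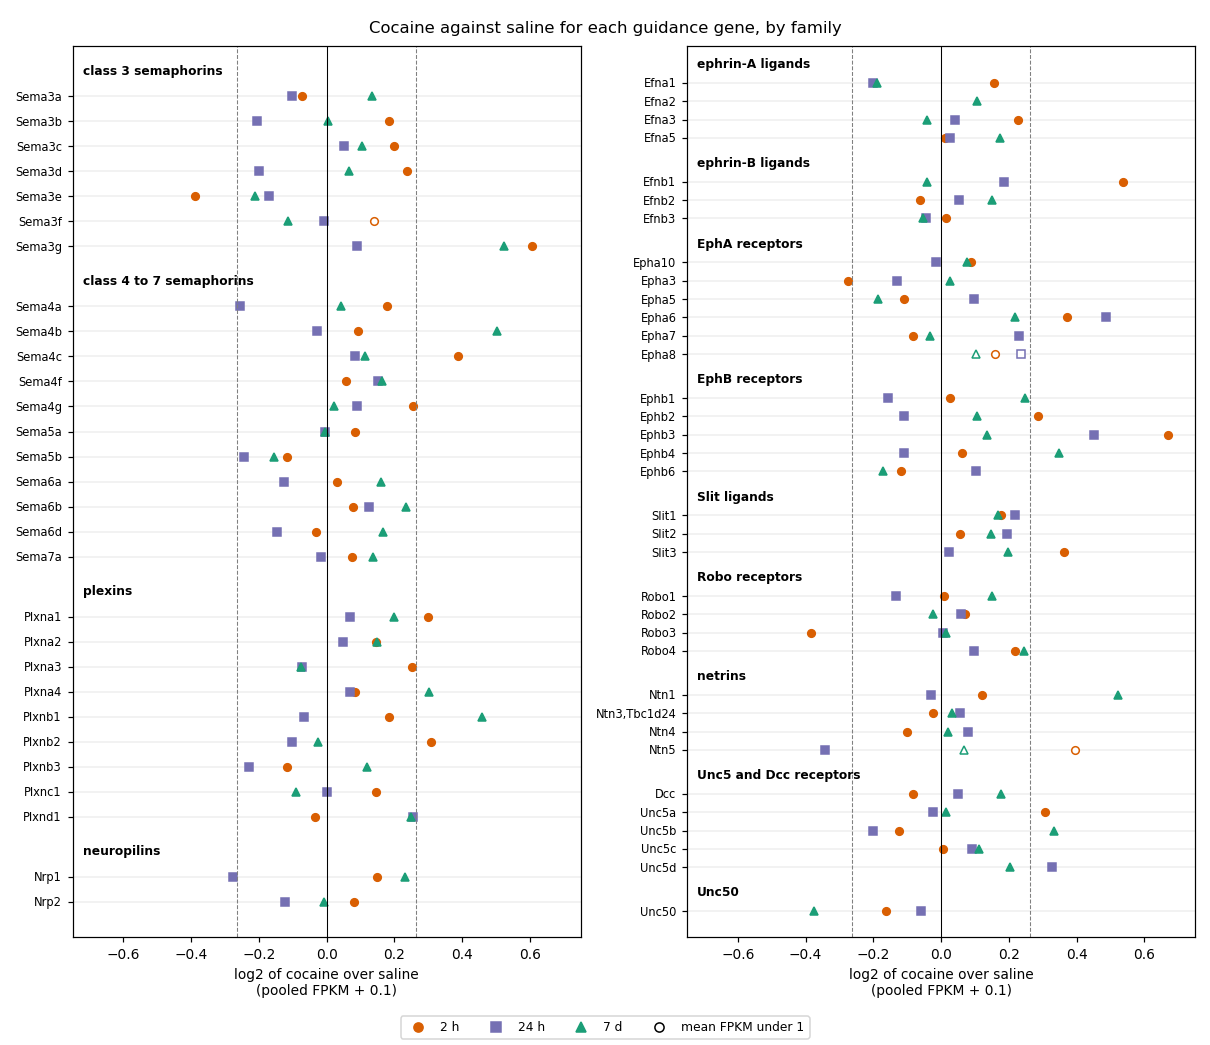
Log2 of cocaine over saline for each member (x axis, on pooled FPKM + 0.1), by family, with 2 h as circles, 24 h as squares and 7 d as triangles. Dashed lines mark 1.2-fold and open symbols a mean under 1 FPKM; Ephb3, Sema3g and Efnb1 lie farthest to the right at 2 h, and most 7 d symbols lie right of 0.

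**Figure D2:**
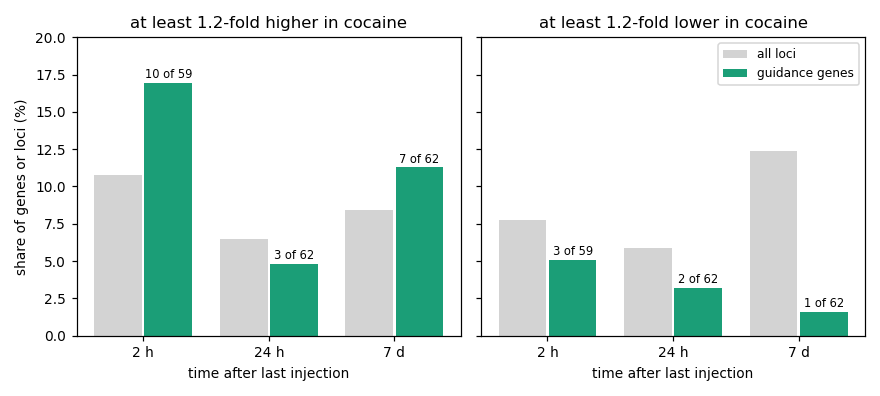
Share (%) of guidance genes (green) and of all loci (grey) at least 1.2-fold higher (left) or lower (right) in cocaine at each time point, bars from 0. The members' share lies above that of all loci for higher genes at 2 h and 7 d and below it in the other 4 comparisons.

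At 2 h the highest log2 differences were those of Ephb3 (0.67), Sema3g (0.61) and Efnb1 (0.54). Ephb3, a receptor tyrosine kinase for ephrin-B ligands, was at 6.26 FPKM in saline against 10.0 in cocaine at 2 h, 6.02 against 8.27 at 24 h, and 5.38 against 5.92 at 7 d. Its cocaine values at 2 h and 24 h lay above all 3 saline values, and its ratio narrowed from 1.59-fold to 1.37-fold and 1.099-fold. Efnb1, a transmembrane ephrin that binds EphB receptors, was at 4.34 FPKM in saline against 6.34 in cocaine at 2 h (1.45-fold), 4.25 against 4.85 at 24 h, and 3.75 against 3.64 at 7 d. Ephb2, which binds the same ligands, was at 3.39 against 4.15 FPKM at 2 h (1.22-fold) and differed by less than 1.2-fold at the later times. The other ephrin-B ligands, Efnb2 and Efnb3, had log2 differences from -0.06 to 0.15 over the 3 time points. Efnb2 was at 11.6, 10.8 and 9.41 FPKM in saline and 11.1, 11.2 and 10.5 in cocaine. Of the remaining EphB receptors, Ephb1 differed by less than 1.2-fold at every time point and Ephb4 was past it only at 7 d.

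The promoters of Ephb3 and Efnb1 are shown because these genes had the largest receptor and ligand differences of the ephrin system at 2 h, together with that of Sema3g, which like Ephb3 passed 1.5-fold. Each run is the 250 bases before the RefSeq start of the gene on GRCm38.p6, from 5′ to 3′ on the plus strand. Capitals mark TGACG or its reverse complement, the core of the cAMP response element. The deposited Ephb3 locus starts earlier, at 21204537, so that the whole Ephb3 run lies inside the locus measured. The last bases of the Sema3g run also lie inside its locus, which starts at 31217860.
Ephb3 (chr16:21204545-21204794): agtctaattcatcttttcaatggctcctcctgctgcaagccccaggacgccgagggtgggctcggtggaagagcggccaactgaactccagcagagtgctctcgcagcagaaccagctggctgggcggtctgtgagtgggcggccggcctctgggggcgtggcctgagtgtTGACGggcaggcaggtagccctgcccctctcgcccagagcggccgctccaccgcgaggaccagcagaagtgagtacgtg
Efnb1 (chrX:99135811-99136060): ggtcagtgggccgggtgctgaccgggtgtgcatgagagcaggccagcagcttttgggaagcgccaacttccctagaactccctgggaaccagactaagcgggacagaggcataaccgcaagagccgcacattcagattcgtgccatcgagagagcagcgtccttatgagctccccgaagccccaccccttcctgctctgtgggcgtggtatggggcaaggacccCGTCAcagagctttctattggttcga
Sema3g (chr14:31217623-31217872): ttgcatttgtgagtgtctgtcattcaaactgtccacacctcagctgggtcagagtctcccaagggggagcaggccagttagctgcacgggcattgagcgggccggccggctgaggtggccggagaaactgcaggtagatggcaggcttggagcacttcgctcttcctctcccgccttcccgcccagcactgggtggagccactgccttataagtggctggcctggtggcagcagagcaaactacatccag
The letters TGACG were found once in the Ephb3 run and once in the Efnb1 run, and not in the Sema3g run. On either strand, they occur in 19.8% of the 27025 genes with a RefSeq promoter, in 5 of the 50 members with a promoter in the table, and in 2 of the 9 members higher at 2 h that had one (Ephb3 and Efnb1). The full palindrome TGACGTCA, which contains TGACG, occurs in 1.77% of genes and in 0 of the 50 members. The AP-1 letters TGANTCA occur in 7.82% of genes and in 2 of the 50 members, of which Sema4c was among the higher genes. The EGR letters GCGNGGGCG occur in 5.33% of genes and in 10 of the 50 members, of which Plxnb2 and Slit3 were among the higher genes. The E-box CACGTG occurs in 6.86% of genes and in 3 of the 50 members. The members' promoters had a median GC content of 64.8%, against 52.4% over all promoters. These matches are letters in a window and show no binding.

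Among EphA receptors and ephrin-A ligands, Epha6 differed most. Epha6, an ephrin-A receptor found mainly in neurons, was at 3.27 FPKM in saline against 4.26 in cocaine at 2 h, 2.43 against 3.45 at 24 h, and 2.71 against 3.17 at 7 d. Its cocaine values at 2 h (1.29-fold) and 24 h (1.40-fold) lay above all saline values, and that at 7 d (1.16-fold) lay within them. Epha3, another ephrin-A receptor, was lower at 2 h (1.73 FPKM in saline and 1.41 in cocaine), with 1.71 against 1.55 at 24 h and 1.59 against 1.63 at 7 d. Epha5, which is abundant in forebrain neurons, was at 15.4, 14.5 and 16.6 FPKM in saline and 14.3, 15.5 and 14.6 in cocaine, with no common direction. The most abundant ligand of these receptors, Efna3, was at 18.8, 16.8 and 16.4 FPKM in saline and 22.0, 17.3 and 16.0 in cocaine. Efna1 was at 1.96, 1.95 and 2.33 FPKM in saline and 2.19, 1.68 and 2.03 in cocaine. No ephrin-A ligand passed 1.2-fold at any time point.

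Among class 3 semaphorins, 1 gene was higher and 1 was lower. Sema3g, a secreted semaphorin made largely by blood vessels, was at 1.25 FPKM in saline against 1.96 in cocaine at 2 h (1.52-fold), 1.49 against 1.59 at 24 h (1.06-fold), and 1.04 against 1.53 at 7 d (1.44-fold). All 3 of its cocaine values lay above all 3 saline values. Sema3e, the class 3 semaphorin that binds Plxnd1 without a neuropilin, went the other way, at 1.51, 1.57 and 1.74 FPKM in saline and 1.13, 1.39 and 1.49 in cocaine, so that no cocaine value reached the lowest saline value. Sema3c, the most abundant class 3 member, was at 5.73, 6.80 and 5.94 FPKM in saline and 6.59, 7.05 and 6.39 in cocaine, with overlapping groups. Beyond Sema3e and Sema3g, no class 3 semaphorin passed 1.2-fold at any time point. Over the 60 members measured in all tables, groups without overlap were found in 2 with higher cocaine values (Sema3g and Sema4g, beside 3.43% of 12957 loci) and in 2 with lower values (Sema3e and Unc50, beside 4.51%).

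Among transmembrane and anchored semaphorins, Sema4c, a ligand of Plxnb2, was at 2.37 FPKM in saline against 3.13 in cocaine at 2 h (1.31-fold), 2.99 against 3.17 at 24 h, and 2.75 against 2.98 at 7 d. Plxnb2 itself was at 8.96 against 11.1 FPKM at 2 h (1.24-fold), 9.38 against 8.74 at 24 h, and 9.03 against 8.86 at 7 d. Both ligand and receptor were past the fold at 2 h, each beside the lowest of its 3 saline values, and within it afterwards. Sema4c in cocaine was nearly level over the 3 time points. With the trend with transcript length (given below) taken out, the 2 h log2 difference was 0.35 for Sema4c. That of Plxnb2 was 0.24, within the fold (log2 of 0.26). Sema4b was within 1.2-fold at 2 h (2.56 FPKM in saline and 2.74 in cocaine) and 24 h (2.42 and 2.37), and higher at 7 d (1.56 and 2.26, 1.42-fold). Sema4g was at 1.97, 2.18 and 2.22 FPKM in saline and 2.37, 2.33 and 2.26 in cocaine. Its groups did not overlap, although no difference passed 1.2-fold. Sema4a, which binds plexins B and D, was at 13.4, 14.9 and 12.2 FPKM in saline and 15.2, 12.5 and 12.6 in cocaine, and Sema5b was at 1.62, 2.04 and 1.78 in saline and 1.48, 1.71 and 1.59 in cocaine. Sema6b, a ligand of A-type plexins, was at 32.3, 34.2 and 26.7 FPKM in saline and 34.1, 37.3 and 31.4 in cocaine, higher at each time point by less than 1.2-fold. Sema4d, the ligand of Plxnb1, was read on a locus shared with Gm15440 and outside the counts, at 13.1, 10.99 and 10.3 FPKM in saline and 16.1, 12.9 and 12.01 in cocaine. Sema6c, on another shared locus, was at 3.22, 3.97 and 2.79 FPKM in saline and 3.36, 3.89 and 3.77 in cocaine.

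Of 9 plexins, 2 passed 1.2-fold at 2 h (Plxnb2 and Plxna1), 0 at 24 h and 2 at 7 d (Plxnb1 and Plxna4), all higher. Over all loci, 10.8%, 6.45% and 8.42% were higher at these times. With the trend with transcript length (given below) taken out, only Plxnb1 of these stayed past the fold (log2 of 0.26), at 0.32. Plxnb2 came to 0.24, Plxna1 to 0.22 and Plxna4 to 0.16. Plxnb1, the Sema4d receptor, was at 10.4, 12.6 and 6.99 FPKM in saline and 11.8, 12.1 and 9.66 in cocaine (1.38-fold at 7 d). The low value was that of saline at 7 d, and cocaine at 7 d lay below the saline values of the other tables. Plxna4, a signalling partner of neuropilin 1, had the same arrangement, at 5.24, 4.70 and 3.78 FPKM in saline and 5.56, 4.93 and 4.69 in cocaine. Plxna1, which transduces class 3 and class 6 semaphorins, was at 9.79, 9.48 and 7.88 FPKM in saline and 12.1, 9.94 and 9.07 in cocaine. Plxnb3 was at 1.14, 1.34 and 1.37 FPKM in saline and 1.05, 1.13 and 1.501 in cocaine. Nrp1, the co-receptor for Sema3a and VEGF, was the 1 neuropilin past the fold, lower at 24 h (3.01 FPKM in saline and 2.47 in cocaine), with 2.88 against 3.21 at 2 h and 2.31 against 2.73 at 7 d. Nrp2 was at 4.16, 4.58 and 4.47 FPKM in saline and 4.40, 4.20 and 4.44 in cocaine.

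The 3 Slits, secreted ligands that repel axons, were above 0 at every time point, as were 18.9% of all loci. Their log2 differences ran from 0.02 to 0.36. Slit transcripts are long (5228 to 8051 nt), and the trend with transcript length (given below) is not taken out of these values. Slit3 was at 4.02 FPKM in saline against 5.20 in cocaine at 2 h (1.29-fold), and none of the other Slit values passed 1.2-fold. Slit1, made by neurons, was at 5.97, 6.02 and 4.96 FPKM in saline and 6.77, 7.02 and 5.58 in cocaine. Their receptors Robo1, Robo2 and Robo4 stayed within 1.2-fold. Robo2, the most abundant of them, was at 16.1, 15.5 and 15.5 FPKM in saline and 16.9, 16.2 and 15.2 in cocaine. Robo3, known for its role in midline crossing, was at 1.45 FPKM in saline against 1.09 in cocaine at 2 h, and level at 24 h (1.70 and 1.71) and 7 d (1.74 and 1.75).

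Of the netrins, Ntn1, the prototype ligand of Dcc, was at 1.56 against 1.70 FPKM at 2 h, 1.90 against 1.86 at 24 h, and 1.33 against 1.95 at 7 d (1.43-fold). Its 7 d cocaine value was just above its 24 h saline value. Ntn5 reached the minimum level only at 24 h, where it was lower, at 0.814, 1.17 and 0.903 FPKM in saline and 1.10, 0.904 and 0.951 in cocaine. The locus of Ntn3 and Tbc1d24 was at 10.3, 10.5 and 9.43 FPKM in saline and 10.1, 10.9 and 9.65 in cocaine, and its reads cannot be assigned to either gene. Unc5a, a repulsive netrin receptor of neurons, was at 18.2 against 22.5 FPKM at 2 h (1.24-fold), 18.9 against 18.6 at 24 h, and 15.0 against 15.1 at 7 d. Unc5b, which endothelial cells also carry, was at 2.00 against 1.83 FPKM at 2 h, 2.41 against 2.08 at 24 h, and 1.79 against 2.28 at 7 d (1.26-fold). Unc5d, which also binds FLRT proteins, was at 3.46 against 4.37 FPKM at 24 h (1.25-fold) and 2.92 against 3.38 at 7 d, and failed the authors' estimate at 2 h. Dcc stayed between 1.13 and 1.29 FPKM in all groups. Unc50, the member by spelling alone, was at 25.7, 26.3 and 31.9 FPKM in saline and 22.9, 25.3 and 24.6 in cocaine.

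**Figure D3:**
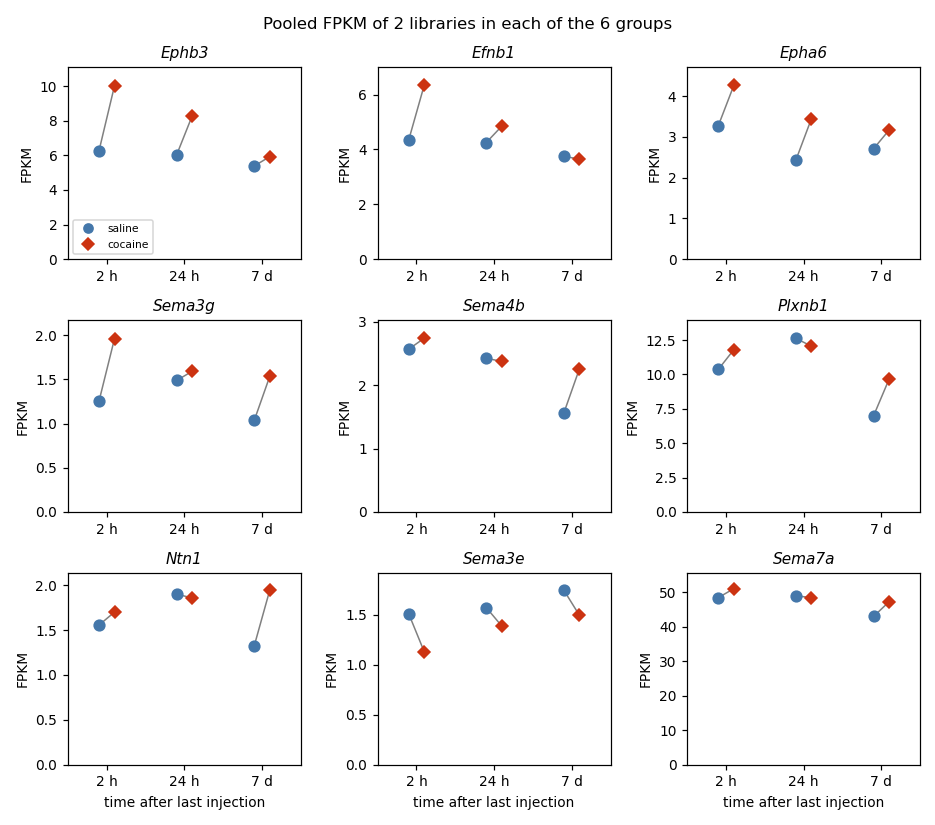
Pooled FPKM (y axes from 0, 1 gene a panel) in saline (blue circles) and cocaine (red diamonds) at each time point, with a line joining the pair. Ephb3 differs mostly through its cocaine value at 2 h (10.0 FPKM), whereas Plxnb1 and Sema4b differ at 7 d beside a low saline value (6.99 and 1.56 FPKM).

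The place of the cocaine value among the saline values was also noted, with no test. All 10 members higher at 2 h had a cocaine value above the saline values of all 3 tables, and the 3 lower members had one below them, as had 76.4% of the 1312 higher and 79.0% of the 883 lower loci found in all tables. At 24 h the 3 higher members lay above all their saline values (Unc5d without a value at 2 h). The 2 lower members, Nrp1 and Ntn5, lay within theirs. Of the loci found in all tables, 69.1% of 725 higher and 56.9% of 626 lower at 24 h lay outside all saline values. Of the 7 members higher at 7 d, 2 (Sema3g and Ntn1) had a cocaine value above all saline values, and 5 (Sema4b, Plxnb1, Ephb4, Unc5b and Plxna4) had one within them, where 45.6% of the 987 higher loci lay above all saline values. Ephb4, the receptor of Efnb2 in veins, was one of these, at 1.89, 2.14 and 1.44 FPKM in saline and 1.98, 1.98 and 1.87 in cocaine. Against the mean of the other tables, saline at 7 d was lower in 47 of 60 members, with a median log2 difference of -0.15, where all 12957 loci had a median of -0.01. Cocaine at 7 d was lower in 41 of 60 members, with a median of -0.08, against -0.04 over all loci. These values cross separately normalized tables.

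Transcript length moved with the 7 d difference. The members are long, with a median of 5224 nt for the longest transcript of each, against 3054 nt over all loci with a length, and 58 of 62 lay above that median. Over all loci the log2 difference correlated with length at 7 d (Spearman's rho 0.47, across 11326 loci, which share the same libraries), and less so at 2 h (0.16) and 24 h (0.09). Among the members alone the rho was 0.20 at 7 d (62 genes), -0.06 at 2 h (59 genes) and 0.06 at 24 h (62 genes). In the 20 groups of loci ordered by length, the median log2 difference at 7 d ran from -0.24 in the shortest to 0.14 in the longest. With this trend taken out, the median log2 difference of the members became 0.03 at 7 d, 0.02 at 2 h and -0.03 at 24 h. Saline at 7 d, set against the saline values of the other tables, was correlated with length at a rho of -0.49. The same contrast for cocaine at 7 d had a rho of -0.16. For saline at 2 h and 24 h the rho was 0.32 and 0.28, in contrasts that also hold the 7 d saline values. The part of length in the difference of any single member was not tested.

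**Figure D4:**
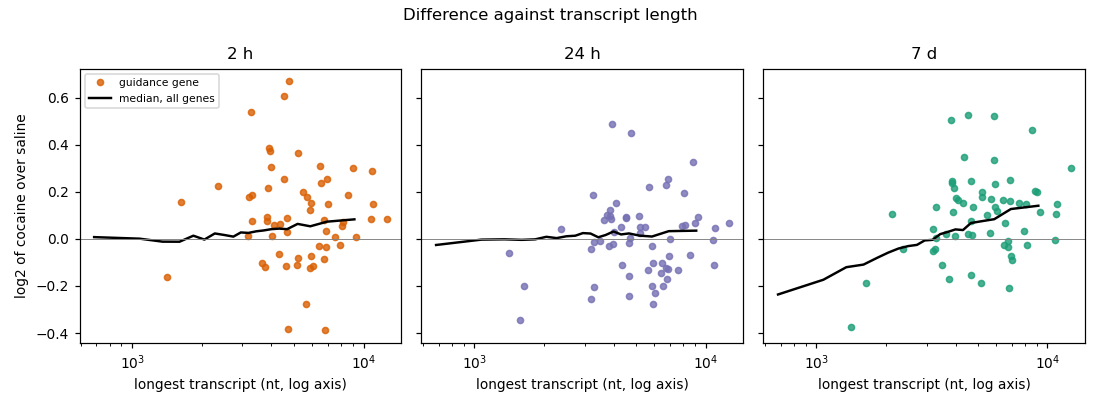
Log2 of cocaine over saline (y axis) against the longest transcript (nt, log axis) at each time point, for guidance genes (points) and as the median of all loci in 20 length groups (black line). At 7 d the line climbs from -0.24 to 0.14 and the members, mostly on its right side, scatter about it.

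Summed markers of several cell types were also higher in cocaine at 7 d. Those of oligodendrocytes (676 FPKM in saline and 669 in cocaine) and of deep-layer neurons (18.8 and 17.2) were lower. The summed level of 6 endothelial markers was 85.2 FPKM in saline and 94.8 in cocaine, with all 6 above 0, and that of 4 mural markers was 38.5 and 45.3, with all 4 above 0. At 2 h the endothelial sums were 79.6 and 86.4 FPKM, and at 24 h they were 102 and 96.6. The mural sums were 50.1 and 50.2 FPKM at 2 h, and 46.7 and 46.1 at 24 h. The members named above for a role in vessels had log2 differences at 7 d of 0.52 (Sema3g), 0.35 (Ephb4), 0.33 (Unc5b), 0.25 (Plxnd1), 0.24 (Robo4) and 0.15 (Efnb2), at a time when 72.6% of all members were above 0. The same genes ran from -0.12 (Unc5b) to 0.61 (Sema3g) at 2 h and from -0.20 (Unc5b) to 0.26 (Plxnd1) at 24 h. They were named together after their values were seen, from a list that is not complete, and the part of vascular cells in them was not tested. Outside that list, Sema3e, which binds Plxnd1, was at -0.21 at 7 d and Efna1 at -0.19, whereas Nrp1, a co-receptor for VEGF, was at 0.23. Summed astrocyte markers were 319 against 351 FPKM at 2 h, 367 against 327 at 24 h and 313 against 351 at 7 d. Summed upper-layer neuron markers were 90.8 against 106 FPKM at 2 h, 89.6 against 96.0 at 24 h and 71.2 against 82.5 at 7 d. Those of oligodendrocyte precursors were 9.62 against 9.80 FPKM at 2 h, 10.5 against 8.66 at 24 h and 9.25 against 11.2 at 7 d. At 24 h, summed oligodendrocyte markers were 694 against 575 and summed microglial markers were 89.7 against 84.5. Summed neuronal markers were 3069 against 3123 FPKM at 7 d.

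A change shared by the 3 time points was tested with limma on the 3 log2 differences of each locus, the only replication that the tables allow. None of 60 members passed an adjusted p of 0.05 (limma, Benjamini-Hochberg over 12957 loci; lowest member value 0.590), beside 0.00772% of all loci. At an unadjusted p under 0.05 there were 7 members, Epha6, Ephb3, Slit1, Sema3g, Plxna1, Sema6b and Unc50, beside 8.3% of all loci. The largest mean log2 difference among them was that of Ephb3, at 0.42 ± 0.11 (moderated SE, 95% interval 0.12 to 0.72). Here limma draws each SE toward the spread of all loci, so the intervals do not rest on the 3 values of a gene alone. Epha6 had a mean of 0.36 ± 0.09 (0.13 to 0.58), Sema3g 0.41 ± 0.14 (0.04 to 0.77) and Slit1 0.19 ± 0.06 (0.04 to 0.34). These intervals are not adjusted for the number of loci. They leave out 0 because the genes were picked by an unadjusted limma p under 0.05. Of the 59 members counted in every table, 17 were above 0 at each time point (28.8%, against 18.9% of all loci) and 3 were below 0 (Sema3e, Sema5b and Unc50, against 14.5% of all loci).

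The co-receptors and cytoplasmic effectors of these systems were taken from a list of 95 genes, of which 92 were tested. Higher and lower by 1.2-fold were 8 and 5 of 88 at 2 h, 2 and 3 of 87 at 24 h, and 11 and 0 of 86 at 7 d. The higher and lower shares were 9.09% with 5.68% at 2 h, 2.30% with 3.45% at 24 h, and 12.8% with 0% at 7 d, so that only the higher share at 7 d exceeded that of all loci (8.42%). The partners' median log2 differences were 0.06, 0.02 and 0.08. Enah, an actin-elongating protein downstream of netrin and Slit receptors, was past the fold at 2 h (12.4 FPKM in saline and 15.2 in cocaine) and 7 d (10.98 and 13.8). Ssh1, a phosphatase that activates cofilin, was past it at 2 h (1.74 and 2.44 FPKM) and 7 d (1.67 and 2.48). Mical2, a redox enzyme that disassembles actin filaments, was lower at 2 h (93.3 and 75.8 FPKM) and 24 h (119 and 92.4). Rgs3, a regulator of G protein signalling that binds ephrin-B tails, was lower at 2 h (9.02 and 6.17 FPKM) and 24 h (8.79 and 6.77), and level at 7 d (8.81 and 8.87).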

How the data were processed

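PolyA RNA of the PFC was sequenced on an Illumina HiSeq from 12 libraries in 6 groups. The submitters' processing notes name CASAVA 1.8.2, Trimmomatic 0.32, TopHat2 2.0.12, Cufflinks 2.2.1 with Cuffdiff, and GRCm38, whereas the methods name cutadapt and mm9. The loci matched GRCm38. The authors deposited 1 Cuffdiff table per time point with an FPKM per group, pooled over 2 libraries. Their fold change, test statistic, p-value and q-value columns hold the authors' own comparisons and were not used. The column names do not state the treatment plainly (C marks 1 column of each pair, a letter that the labels also use for cocaine), so saline and cocaine were assigned by the study's supplementary headings, and every direction rests on this.

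Rows with the authors' status OK entered. Where a name stood on several loci, the longest was taken. Differences were taken on log2(FPKM + 0.1), which understates those of low genes, and counted at 1.2-fold or more where the mean level reached 1 FPKM. The intercept of the 3 differences per locus was tested with limma 3.58.1 (R 4.3.3, trend, Benjamini-Hochberg over all loci, two-sided). The spread in this test holds that between libraries and any change with time together. A run of the fit on simulated data planted shifts larger than any difference of a member, so it cannot show the power at the sizes seen here. Values per library are not used here, so no interval for counting error is given. Python 3.11.15, pandas 2.3.3, numpy 2.4.6, scipy 1.17.1 and matplotlib 3.10.9 were used. Transcript lengths came from the annotation of an earlier build, by symbol, and promoters from RefSeq (GRCm38.p6).

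Written out in each group were the 5 members with the highest and the 5 with the lowest difference at each time point, those past 1.2-fold in 1 direction at 2 or more time points, and the most expressed of each family. Other members and partners past 1.2-fold were described too, partners only if at 2 or more time points. Members and lists were chosen with earlier results of these data known. The alternatives were a pseudocount of 1, no minimum or a minimum of 5 FPKM, centring, removal of the length trend, the most expressed locus, and 1.5-fold. Added after seeing the data were the counts without Unc50 and with loci that name a member behind another gene (Sema4d, Sema6c and Efna2).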

Additional observations from a re-analysis of the deposited data

How the results depend on the processing

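No paired analysis was possible because the deposited columns pool the 2 libraries of a group, and leaving out a library could not be run for the same reason. At a minimum of 5 FPKM the members at least 1.2-fold higher numbered 5, 1 and 1 (2 h, 24 h, 7 d), and the lower ones 0 at both 2 h and 24 h. At 1.5-fold, 2, 0 and 0 were higher and 0, 0 and 0 lower. With a pseudocount of 1, 0 were lower at 2 h, 0 lower at 24 h and 4 higher at 7 d. With the length trend taken out, 4 were lower at 24 h. Without Unc50, 0 were lower at 7 d. All other counts stayed within 1.5 times. Among these, removal of the length trend left 7 higher at 2 h, without Plxnb2, Plxna1 and Ephb2. It left 5 higher at 7 d, without Plxna4 and Unc5b. The median at 7 d ran from 0.03 (length trend taken out) to 0.12 (centred on all loci), and that at 2 h from 0.02 to 0.08. That at 24 h crossed 0 (-0.03 to 0.05). Of 138 recomputations of the 26 differences past the fold (a member at a time point each), 0 changed direction and 4 moved by more than the saline SD across tables (Sema3e, Robo3 and Epha3 with a pseudocount of 1, and Plxnb2 with the length trend taken out). The limma test called 0 members under every alternative, with lowest adjusted p from 0.471 to 0.947 and 2 to 7 members at an unadjusted p under 0.05. An exact sign-flip test of 3 differences cannot go below p = 0.25.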
